A study of Homo sapiens with 6 samples.

Results

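This account covers 51 genes that encode synaptic and neural adhesion proteins, as measured by RNA-seq in 6 clonal lines of HEK293, an established human cell line of embryonic kidney origin. The genes were chosen by symbol: each row of the deposited abundance table whose symbol belongs to a fixed list of 14 protein families was taken and joined to the count tables, which gave 51 of 58395 genes. GST lines 2, 8 and 9 overexpressed tagged glutathione S-transferase (GST-3F), the control protein. NOCT lines 4, 11 and 12 overexpressed NOCT ∆(2-15)-3F, a nocturnin that lacks residues 2 to 15 and carries the same tag. Every line is 1 clone, all were grown for 3 days without further treatment, and the comparison concerns which transcripts differ in amount when this nocturnin replaces the control protein. Since nothing in the labels separates clone from construct, p-values here compare 3 clones with 3 clones. For each gene they set the difference between the groups against the spread among clones within the groups.

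Synaptic adhesion proteins sit in the membranes of both cells at a synapse and bind each other across the cleft. On the presynaptic side, neurexins are the central receptors, and the contactin-associated proteins share their domain plan and partner with contactins along the axon. On the postsynaptic side are neuroligins, LRRTM, SLITRK and LRFN proteins and the netrin-G ligands. They bind presynaptic partners, for many of them neurexins or receptor tyrosine phosphatases, and gather receptors and scaffolds beneath the membrane. Immunoglobulin (Ig) superfamily adhesion proteins, some held by a GPI lipid anchor (contactins, the IgLON family) and others by a transmembrane segment (NCAM, L1, CADM and DSCAM families), guide axons and hold neurites together. Several of these, among them CADM1, also act in epithelial cells.

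The 6 libraries held 19729745 to 24422406 counts on genes. Reads on the GST construct numbered 88, 46 and 50 in GST lines 2, 8 and 9 and at most 1 in a NOCT line, while those on the NOCT construct numbered 74, 46 and 82 in NOCT lines 4, 11 and 12 and at most 7 in a GST line, so every library carried its labelled construct. Several neuron markers were low. RBFOX3 ranged from 0.0288 to 0.148 TPM (transcript abundance scaled to library depth and corrected for gene length). For DCX the range was 0 to 0.0662 TPM and for STMN2 0 to 0.0601 TPM. The 15 neuron markers summed to 64.5 to 82.3 TPM in GST lines and 72.0 to 95.9 TPM in NOCT lines, mostly from the intermediate filament genes NEFL and INA. Of the other neuron markers, MAP2 ranged from 2.37 to 8.84 TPM, SYP from 2.61 to 7.53 TPM, SNAP25 from 0.762 to 2.53 TPM and SYT1 from 0 to 6.33 TPM. Of the 9 neuron markers tested, 6 had log2 fold changes above 0 and the median was 0.52. SNAP25 was among the 3 below 0, at -0.82 (edgeR adjusted p = 0.374). None passed the edgeR adjusted threshold of 0.05, and MAP2, INA and SYP were higher in NOCT lines by its unadjusted p, where 7.38% of all genes were, with DESeq2 adjusted p-values of 0.0155, 0.0196 and 0.276. The 10 glial markers summed to 7.18 to 8.85 TPM in GST lines and 7.97 to 10.9 TPM in NOCT lines. The 10 kidney and epithelial markers summed to 127 to 138 TPM in GST lines and 211 to 379 TPM in NOCT lines, with UMOD at 0 in all 6 lines and most of the sum from EPCAM, KRT8 and KRT18. By unadjusted edgeR p, 4 of the 8 tested genes of this list were higher in NOCT lines, where 7.38% of all genes were. On the lower side were 2, where 6.52% of all genes were. Among the higher ones were EPCAM, at a log2 fold change of 1.99 (DESeq2 adjusted p = 0.0142), and KRT8, at 1.11 (DESeq2 adjusted p = 0.0012). The lower ones were the kidney progenitor genes PAX2, at a log2 fold change of -2.13 (DESeq2 adjusted p = 1.15e-06), and SIX2, at -0.85 (DESeq2 adjusted p = 0.0777). LHX1, of the same list, had 2.32 to 7.50 TPM in GST lines and 6.08 to 13.7 TPM in NOCT lines, with overlap. The 10 markers of other cell types summed to 4.17 to 5.25 TPM in GST lines and 4.45 to 10.7 TPM in NOCT lines, with COL1A2 and HBB at 0. The part of these marker differences in the results that follow was not tested.

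The promoters of CHL1 and SLITRK3, the members with the lowest adjusted p-values, are printed as the RefSeq sequence of GRCh38.p14 from 250 bases before to 50 bases after the RefSeq start of the gene. Capitals mark CpG dinucleotides. The CHL1 window is chr3:197639-197938 on the plus strand, and the SLITRK3 window is chr3:165197060-165197359 on the minus strand.
CHL1: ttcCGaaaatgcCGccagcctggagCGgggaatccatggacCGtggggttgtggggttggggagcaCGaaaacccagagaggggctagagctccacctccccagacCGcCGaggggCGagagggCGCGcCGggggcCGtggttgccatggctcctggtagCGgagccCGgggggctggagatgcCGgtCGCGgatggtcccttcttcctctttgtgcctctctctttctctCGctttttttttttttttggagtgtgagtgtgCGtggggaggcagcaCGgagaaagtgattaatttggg
SLITRK3: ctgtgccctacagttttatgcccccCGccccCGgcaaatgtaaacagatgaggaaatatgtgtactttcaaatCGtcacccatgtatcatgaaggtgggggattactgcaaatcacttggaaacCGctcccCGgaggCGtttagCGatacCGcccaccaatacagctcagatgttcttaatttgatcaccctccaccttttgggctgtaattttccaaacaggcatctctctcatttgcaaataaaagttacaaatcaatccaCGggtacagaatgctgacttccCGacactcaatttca

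The CHL1 window held 20 CpG and the SLITRK3 window 10, against a median of 14 over all 35116 promoters of that length. Among the 42 members with an entry the median was 16 CpG, with 18 for the 25 whose counts were tested and 13 for the 17 whose counts were too low. The letters TATAAA, searched on both strands, were found in neither printed window, in 1 of the 42 members (LRRTM2) and in 11.5% of all promoters.

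Reads were found for 49 of the 51 members, and CNTN2 and CNTNAP4 had 0 counts in all 6 lines. Their summed level was 193, 188 and 186 TPM in GST lines 2, 8 and 9 and 222, 217 and 159 TPM in NOCT lines 4, 11 and 12. NOCT line 12 was thus the lowest and NOCT lines 4 and 11 the highest, so the groups overlapped. Between 18 and 21 members reached 1 TPM in a line, and the 5 highest members of a line held 54.2% to 63.8% of its summed level. CADM1, an Ig adhesion protein also known as SynCAM1, was the highest at a mean of 49.0 TPM, 25.2% of the members' total. CADM4, of the same family, followed at 19.5 TPM, NLGN2, the neuroligin of inhibitory synapses, at 19.1 TPM, and NRCAM, an L1 family protein of nodes and axons, at 16.4 TPM. NCAM1, LRFN3, LRFN1 and LRFN4 lay between 9.80 and 12.5 TPM, while all 4 LRRTM genes together reached 1.40 TPM and the 4 IgLON genes 0.964 TPM. The order of CADM4 and NLGN2 was not the same in both groups: CADM4 had 16.7 ± 2.40 TPM and NLGN2 22.2 ± 2.66 TPM in GST lines (SD, n = 3), and CADM4 had 22.4 ± 11.7 TPM and NLGN2 16.1 ± 2.72 TPM in NOCT lines.

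**Figure D1:**
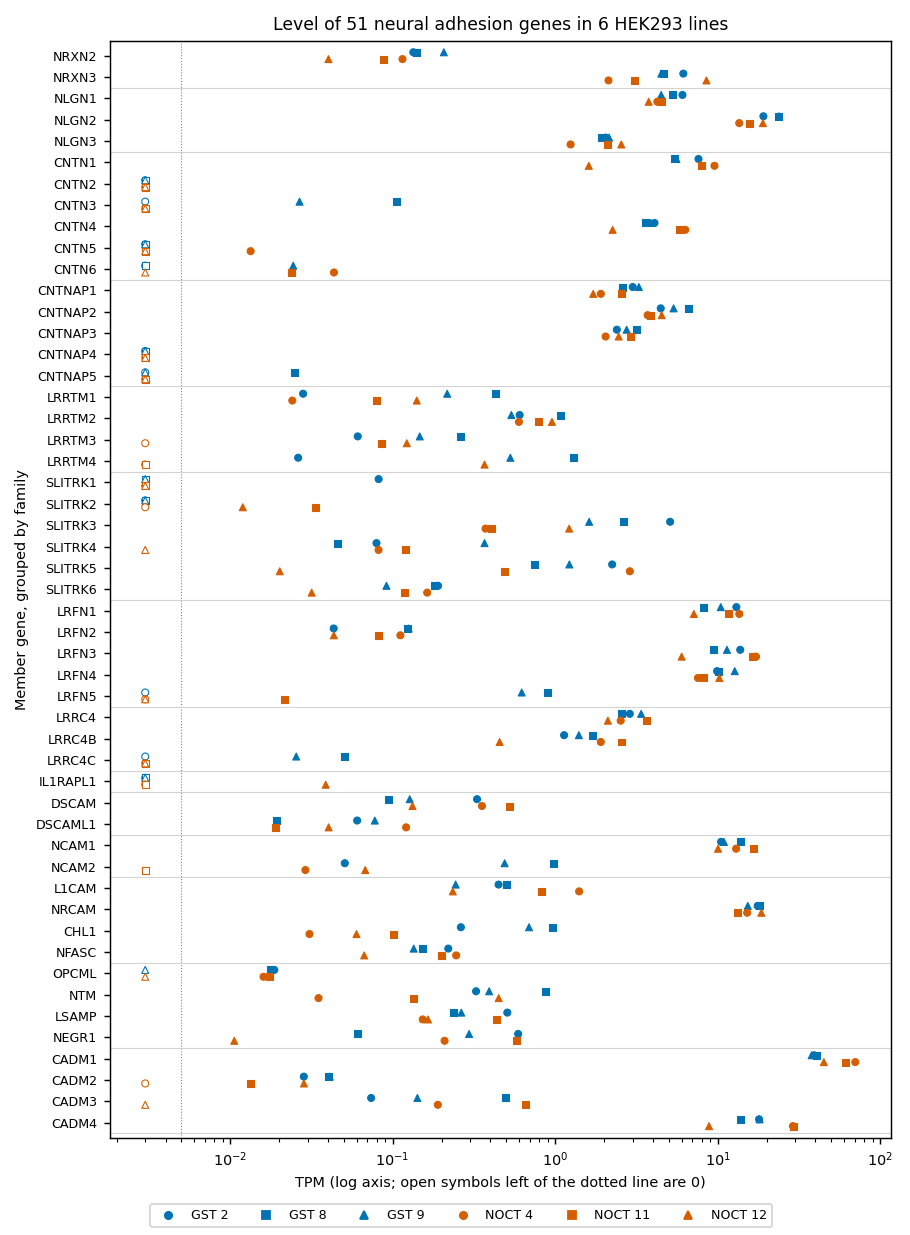
Level of each of the 51 members in TPM on a log axis, one point per line (GST blue, NOCT orange), with members grouped by family and values of 0 drawn as open symbols left of the dotted line. CADM1 is the highest member, and most SLITRK, IgLON and contactin genes lie below 1 TPM.

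The comparison of groups used edgeR on counts, and 30 of the 51 members had enough reads to enter the 17261 genes tested. A member could enter through the group in which it was high, so counts over these 30 describe them and are not evidence about the whole list. No member passed an adjusted p of 0.05 in edgeR, where 10 genes did (0.0579%), and 1 member, CHL1, passed 0.1, where 85 genes did (0.492%). By the unadjusted edgeR p of 0.05, 8 of the 30 members (26.7%) passed, against 13.9% of all genes tested. Of these, 7 were lower in NOCT lines (NRXN2, CNTNAP1, CNTNAP2, NLGN1, NLGN2, SLITRK3 and CHL1), where 6.52% of all genes were. CADM1 was the member on the higher side, where 7.38% of all genes were. The same 8 members were those whose 3 GST and 3 NOCT lines did not overlap, against 20% of all genes tested (9.54% with the NOCT lines lower and 10.5% with them higher). The log2 fold change was below 0 for 22 of 30 members and 49.3% of all genes, with a median of -0.21 for the members and 0.00 for all genes.

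**Figure D2:**
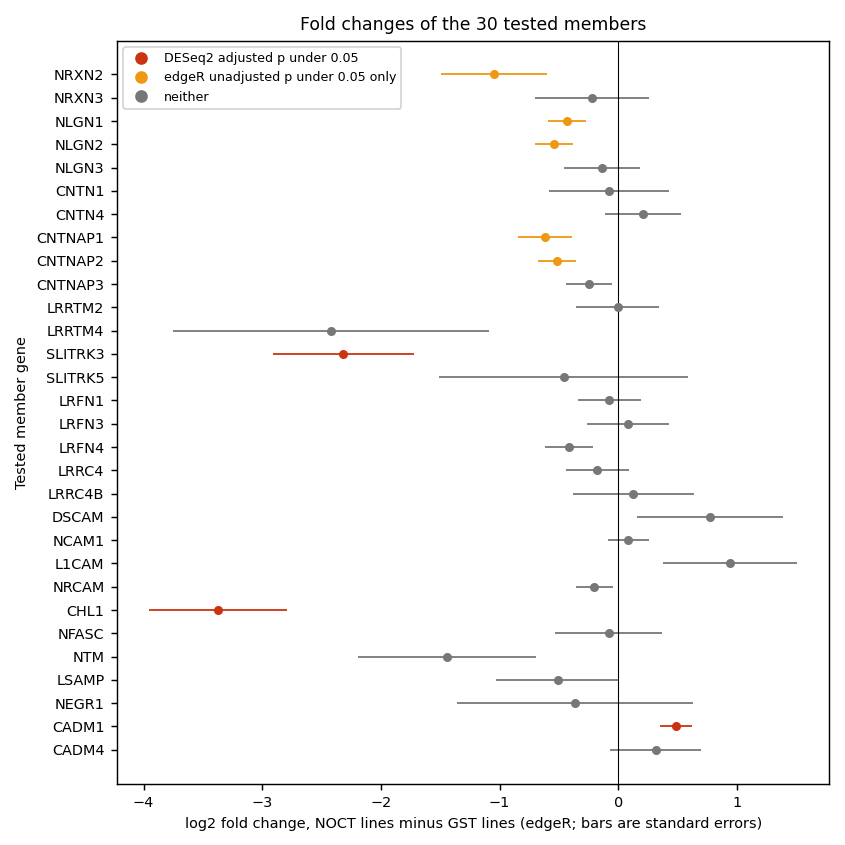
Log2 fold change of each tested member in edgeR, NOCT lines minus GST lines, with bars of 1 standard error and colours for the tests passed. SLITRK3 and CHL1 lie beyond -2 with DESeq2 adjusted p-values under 0.05, and LRRTM4 lies beyond -2 with a standard error of 1.33.

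All 5 tested members among the 7 neurexins and contactin-associated proteins had log2 fold changes below 0, from -1.05 to -0.22, against 49.3% of all genes. None of the 5 passed the adjusted threshold, and in NRXN3 NOCT line 12 lay above every GST line. CNTNAP2, known for clustering potassium channels beside the node of Ranvier, spans chr7:146116002-148420998 (GRCh38). It had 27.7, 37.9 and 32.2 CPM (counts relative to library size, with edgeR's scaling between libraries) in GST lines 2, 8 and 9 and 20.0, 21.8 and 26.7 CPM in NOCT lines 4, 11 and 12. All NOCT lines lay below all GST lines, with the nearest values 26.7 and 27.7. The log2 fold change was -0.52 ± 0.16 (SE), with an edgeR adjusted p of 0.232.

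CNTNAP1, which pairs with contactin at the paranode where myelin meets the axon, spans chr17:42682613-42699814. It had 6.76, 5.43 and 7.13 CPM in the GST lines and 3.73, 5.20 and 3.67 CPM in the NOCT lines. NOCT line 11 came close to GST line 8, and the groups did not overlap. Its log2 fold change was -0.62 ± 0.23, with an edgeR adjusted p of 0.285. Genes on the opposite strand overlap 12.31% of its exon bases.

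Both neurexins lay below 0 in different ways. NRXN2 spans chr11:64606174-64723188 and rested on few reads, with 10, 11 and 16 counts in GST lines 2, 8 and 9 and 10, 7 and 3 in NOCT lines 4, 11 and 12. On the CPM scale the GST lines lay between 0.511 and 0.787 and the NOCT lines between 0.151 and 0.393, with no overlap. The log2 fold change was -1.05 ± 0.45, with an edgeR adjusted p of 0.352. NRXN3 had 35.6, 24.9 and 25.2 CPM in the GST lines and 10.7, 16.2 and 46.9 CPM in the NOCT lines. NOCT lines 4 and 11 were thus below every GST line and NOCT line 12 above every one. Over all 6 lines its log2 fold change was -0.22 (edgeR adjusted p = 0.865), and without NOCT line 12 it was -1.09 (edgeR adjusted p = 0.0336). The second fit leaves out the NOCT line that lay above the GST lines, so its lower estimate follows from that choice. It called 5.17% of all genes by edgeR adjusted p under 0.05, against 0.0579% over all 6 lines. CNTNAP3 had a log2 fold change of -0.25 and an edgeR adjusted p of 0.608. CNTNAP3 has near-identical copies on chromosome 9, so its uniquely placed reads give an uncertain level.

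Of the 22 postsynaptic organisers, 12 were tested, of which 10 had log2 fold changes below 0, against 49.3% of all genes. None of the 12 passed the adjusted threshold in edgeR. All 3 neuroligins were below 0. NLGN2 lies at chr17:7404874-7419860. It had 39.6, 45.1 and 47.7 CPM in GST lines 2, 8 and 9 and 24.4, 29.4 and 37.3 CPM in NOCT lines 4, 11 and 12. Every NOCT line was below every GST line, NOCT line 12 by the least. This gave 44.1 ± 4.14 CPM in GST lines and 30.4 ± 6.49 CPM in NOCT lines (SD, n = 3), and the log2 fold change was -0.54 ± 0.16, with an edgeR adjusted p of 0.224. The edgeR adjusted p was 0.0263 without NOCT line 12, 0.0359 without the filter on low counts and 0.255 to 0.597 without any 1 of the other lines. NLGN2 did not pass in DESeq2 (adjusted p = 0.0726) or in the authors' deposited table (adjusted p = 0.0857).

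NLGN1, the neuroligin of excitatory synapses, spans chr3:173396284-174286644. It had 23.0, 18.4 and 16.4 CPM in the GST lines and 14.0, 15.5 and 13.5 CPM in the NOCT lines. The groups did not overlap, and the gap between GST line 9 and NOCT line 11 was small. Its log2 fold change was -0.43 ± 0.16, with an edgeR adjusted p of 0.291. NLGN3 had 2.94 ± 0.251 CPM in GST lines and 2.68 ± 1.01 CPM in NOCT lines (SD, n = 3), and its groups overlapped.

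SLITRK3, a leucine-rich repeat protein that binds a presynaptic receptor phosphatase and organises inhibitory synapses, lies at chr3:165186720-165197109. GST lines 2, 8 and 9 gave 176, 96 and 58 counts, and NOCT lines 4, 11 and 12 gave 15, 15 and 42. In CPM this was 9.29, 4.46 and 2.85 against 0.590, 0.673 and 2.11. NOCT line 12 was the nearest to the GST lines, just below GST line 9. The fitted level was 4.98-fold lower in NOCT lines (log2 fold change -2.32 ± 0.60), with an edgeR adjusted p of 0.191 and a DESeq2 adjusted p of 0.00356. Without NOCT line 12 the log2 fold change was -3.12 and the edgeR adjusted p 0.0188, in a fit that called 5.17% of all genes. That fit leaves out the NOCT line nearest to the GST lines, so its larger difference follows from that choice. Without any 1 of the other lines the edgeR adjusted p was 0.292 to 0.536. In the authors' deposited table the shrunken log2 fold change of SLITRK3 was -1.01, with an adjusted p of 0.00124.

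SLITRK5, a related protein, had 17.6, 5.43 and 9.30 CPM in the GST lines and 19.7, 3.45 and 0.151 CPM in the NOCT lines. NOCT line 4 was the highest of all lines and NOCT line 12, with 3 counts, the lowest, so neither group had a common level. LRRTM4, a ligand of neurexins and heparan sulfate, had 1, 52 and 21 counts in the GST lines and 0, 0 and 14 counts in the NOCT lines. The groups overlapped, since NOCT line 12 lay above GST line 2. Its log2 fold change of -2.42 had a standard error of 1.33 and an edgeR adjusted p of 0.459.

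The LRFN proteins are also called SALMs, and some of them bind receptor phosphatases or scaffolds of the PSD-95 family. LRFN1, LRFN3 and LRFN4 had log2 fold changes of -0.07, 0.08 and -0.42, with edgeR adjusted p-values of 0.925, 0.935 and 0.411. LRFN1 shares 20.29% of its exon bases with another gene on its own strand, where a read cannot be given to 1 gene. Both tested netrin-G ligands were near 0 too, at -0.18 for LRRC4 and 0.13 for LRRC4B.

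Among the 10 GPI-anchored Ig proteins, 5 were tested and none passed the edgeR threshold, adjusted or unadjusted. CNTN1, the contactin of the paranode, had 21.3, 14.0 and 15.0 CPM in the GST lines and 23.2, 20.1 and 4.27 CPM in the NOCT lines. CNTN4, an axonal contactin, had 13.9, 11.3 and 12.7 CPM against 18.6, 17.9 and 7.28 CPM. NOCT line 12 was the lowest of the 6 lines and NOCT line 4 the highest in both genes, and NOCT line 11 was above every GST line in CNTN4 but below GST line 2 in CNTN1. NEGR1, of the IgLON family, ranged from 6 to 56 counts in the GST lines and from 1 to 58 in the NOCT lines. NTM, another IgLON protein, had 16, 45 and 20 counts in the GST lines and 2, 7 and 22 in the NOCT lines, with overlap; the log2 fold change was -1.44 ± 0.75, with an edgeR adjusted p of 0.432.

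Of the 12 transmembrane Ig proteins, 8 were tested, with 3 below and 5 above 0. CHL1, the close homolog of L1 that steers neurite growth, spans chr3:196596-409417 on the plus strand. GST lines 2, 8 and 9 gave 22, 84 and 60 counts, and NOCT lines 4, 11 and 12 gave 3, 9 and 5, which is 1.16, 3.90 and 2.95 CPM against 0.118, 0.404 and 0.251 CPM. The highest NOCT line was below the lowest GST line. The fitted level was 10.3-fold lower in NOCT lines, a log2 fold change of -3.37 ± 0.58 that was the most negative of the tested members. Its edgeR adjusted p was 0.0942 and its DESeq2 adjusted p 5.17e-05. Without NOCT line 12 its edgeR adjusted p was 0.0286, in a fit that called 5.17% of all genes. Without any 1 of the other lines it was 0.0926 to 0.444. In the authors' deposited table CHL1 had a shrunken log2 fold change of -1.23 and an adjusted p of 1.55e-05. In bulk RNA, fewer cells with the transcript and less transcript per cell cannot be told apart.

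The groups overlapped in the other 3 L1 family members. NRCAM had 53.8, 51.2 and 45.2 CPM in the GST lines and 40.3, 36.6 and 53.8 CPM in the NOCT lines, and its log2 fold change was -0.20, with an edgeR adjusted p of 0.599. L1CAM had 23, 27 and 13 counts against 84, 45 and 12, with NOCT lines 4 and 11 above every GST line and NOCT line 12 below. NFASC had a log2 fold change of -0.08. The difference between CHL1 and these genes was not tested.

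CADM1, which binds itself and other CADM proteins across cell contacts, spans chr11:115169218-115504957 on the minus strand. It had 161, 154 and 150.3 CPM in GST lines 2, 8 and 9 and 250.4, 227 and 176 CPM in NOCT lines 4, 11 and 12. Every NOCT line was above every GST line, and NOCT line 12 was the nearest to them. This was 155 ± 5.31 CPM in GST lines and 218 ± 38.2 CPM in NOCT lines (SD, n = 3), a fitted 1.40-fold difference. The log2 fold change was 0.49 ± 0.13, with an edgeR adjusted p of 0.196 and a DESeq2 adjusted p of 0.0472. Without NOCT line 12 it was 0.62, with an edgeR adjusted p of 0.0109, in a fit that called 5.17% of all genes. Leaving out the nearest line widens the difference by construction. Without any 1 of the other lines the edgeR adjusted p was 0.268 to 0.590. In the authors' deposited table the shrunken log2 fold change of CADM1 was 0.44, with an adjusted p of 0.0615.

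CADM4, which holds Schwann cells to axons, lies at chr19:43622368-43639839. It had 15.0, 10.7 and 14.7 CPM in the GST lines and 21.1, 22.2 and 7.03 CPM in the NOCT lines. NOCT lines 4 and 11 were above every GST line and NOCT line 12 below every one. Its log2 fold change was 0.32 ± 0.38, with an edgeR adjusted p of 0.748. NCAM1, the long-known neural cell adhesion molecule, had 49.8, 60.4 and 50.2 CPM in the GST lines and 53.5, 71.4 and 45.3 CPM in the NOCT lines, with overlap.

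NCAM2, its relative, spans chr21:20998315-21543329 and did not have enough reads for the edgeR test. The GST lines gave 3, 61 and 30 counts, and the NOCT lines gave 2, 0 and 4. GST lines 8 and 9 stood above the rest, and GST line 2 lay within the range of the NOCT lines, so the groups overlapped. In the authors' deposited table NCAM2 had a shrunken log2 fold change of -0.65 and an adjusted p of 0.00699.

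DESeq2 gave an adjusted p to 26 members and 3 of them passed 0.05, SLITRK3, CHL1 and CADM1, against 3.41% of all genes. The authors' deposited table gave one to 31 members, of which SLITRK3, CHL1 and NCAM2 passed, against 2.87% of its genes. Without NOCT line 12, edgeR called 5 of 30 members (NRXN3, SLITRK3, CHL1, NLGN2 and CADM1), against 5.17% of all genes. Without the filter on low counts it called 6 of 49 (these without NRXN3, plus NCAM2 and LRFN5), against 2.57%.

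The range between clones was wider for the tested members than for all genes at the median, in both groups. The 3 NOCT lines ranged over more than 1 on the log2 scale (2-fold) in 17 of the 30 tested members, against 15.1% of all genes tested, and the GST lines in 8, against 10.6%. The median range within the NOCT lines was 1.29 for the members and 0.43 for all genes tested. Within the GST lines it was 0.53 and 0.34. Many members were low, so the count was repeated for the 16 whose mean reached 5 CPM. Of these, 6 ranged over more than 2-fold among NOCT lines (NRXN3, CNTN1, CNTN4, SLITRK5, LRFN3 and CADM4), against 6.54% of all such genes. SLITRK5 was the 1 that did so among GST lines, against 2.51%. NOCT line 12 was the lowest of the 6 lines in 15 of 30 members, against 17.9% of all genes, and NOCT line 4 in 12, against 21.1%. A range over 2 lines cannot exceed one over 3, and without NOCT line 4, 11 or 12 the count of 17 became 15, 15 and 5, against 9.1%, 11.4% and 3.65% of all genes tested.

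**Figure D3:**
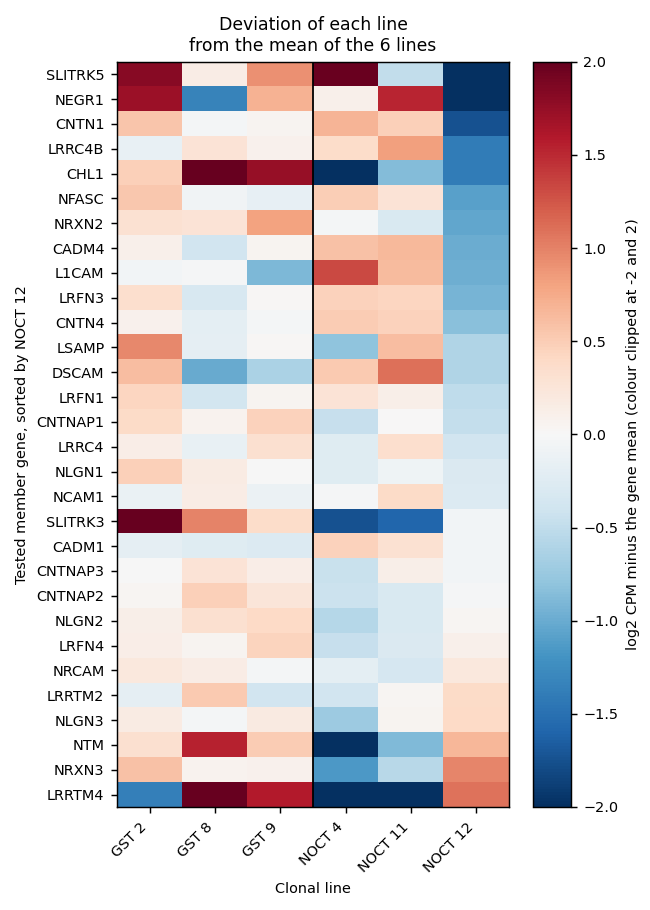
Deviation of each line from the mean of the 6 lines on the log2 CPM scale for the 30 tested members, sorted by NOCT line 12, with colours clipped at -2 and 2. NOCT line 12 is below the mean in most members and stands apart from NOCT lines 4 and 11 at SLITRK5, CNTN1, CADM4 and NRXN3.

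Each member was also set beside its neighbours on the chromosome, up to 50 tested genes on each side. At LRFN1, LRFN3 and CADM4, 3 of the 4 members on chromosome 19, the neighbours deviated in the same lines as the member. The LRFN3 deviations from the 6-line mean were 0.34, -0.33 and 0.02 in GST lines 2, 8 and 9 and 0.46, 0.44 and -0.93 in NOCT lines 4, 11 and 12. The median deviations of the neighbours of LRFN3 were 0.35, -0.47 and -0.14 in GST lines and 0.48, 0.49 and -0.74 in NOCT lines. For CADM4, the deviations of 0.58, 0.65 and -0.99 in NOCT lines 4, 11 and 12 stood beside neighbour medians of 0.47, 0.38 and -0.47. The neighbours of LRFN1 had medians of 0.52, 0.43 and -0.64 in these lines, where LRFN1 itself had 0.28, 0.11 and -0.51. With the neighbours' level as an offset in edgeR, the log2 fold change of CADM4 was -0.042 in place of 0.32. It was -0.18 in place of 0.08 for LRFN3, -0.27 in place of -0.07 for LRFN1 and -0.014 in place of 0.13 for LRRC4B, also on chromosome 19. CNTN4, on chromosome 3, had deviations of 0.51, 0.46 and -0.83 in NOCT lines 4, 11 and 12. Its neighbour medians there were 0.22, 0.16 and -0.29, and its log2 fold change was 0.11 with the offset in place of 0.21. CNTNAP3, on chromosome 9, had a deviation of -0.44 in NOCT line 4 beside a neighbour median of -0.39. Its log2 fold change was -0.027 with the offset in place of -0.25. For NRXN3 it was -0.52 in place of -0.22, and for SLITRK5 -0.68 in place of -0.46. Copy number itself was not measured, and its part in these values was not tested.

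At CNTN1 and CHL1 the neighbours deviated less than the member. The neighbours of CNTN1 had medians within 0.04 of 0 in every line, while CNTN1 had 4.27 CPM in NOCT line 12 and at least 14.0 CPM in every other line. CHL1 and CNTN4 lie on the same arm of chromosome 3 with CNTN6 between them, 683 kb from CHL1 and 695 kb from CNTN4. The neighbours of CHL1 had medians of 0.20, -0.20 and -0.04 in GST lines 2, 8 and 9 and 0.23, 0.17 and -0.29 in NOCT lines 4, 11 and 12. CHL1 itself had deviations of 0.47, 2.14 and 1.75 against -2.10, -0.87 and -1.39. With the neighbour offset the log2 fold change of CHL1 was -3.50. The 8 members past the unadjusted edgeR p of 0.05 were the same 8 with this offset, against 14.5% of all genes.

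**Figure D4:**
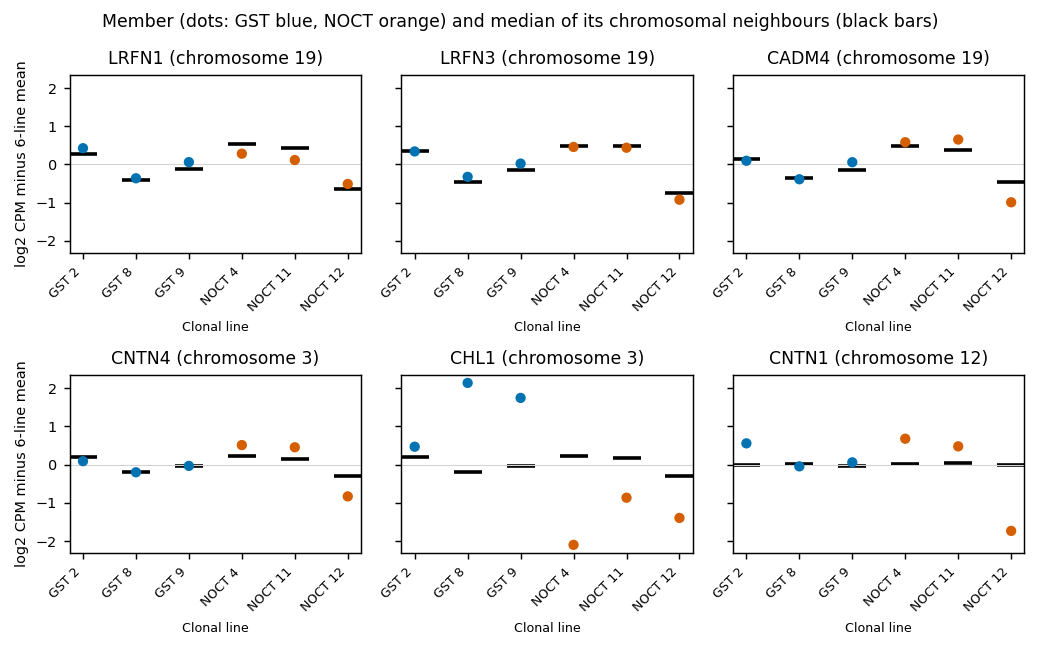
Deviation of 6 members from their 6-line mean (dots, log2 CPM) beside the median deviation of their chromosomal neighbours (black bars) in each line. The bars follow LRFN1, LRFN3 and CADM4 on chromosome 19, and stay within 0.29 of 0 at CHL1 and within 0.04 at CNTN1.

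Many neural adhesion genes are very long, with large introns. A span of at least 200 kb was found for 27 members, 15 of them tested, and for 1249 of all genes tested. Among these long genes 20.3% had an unadjusted edgeR p under 0.05 and 56.6% a log2 fold change below 0, with a median of -0.04. Among the 15992 shorter genes these shares were 13.4% and 48.8%, with a median of 0.01. The 15 long members and the 15 shorter members each held 4 of the 8 members past that p. The median deviation of the long genes was 0.13, 0.02 and -0.04 in GST lines 2, 8 and 9 and -0.05, 0.01 and -0.01 in NOCT lines 4, 11 and 12. The groups overlapped, with a difference of -0.05 and an exact two-sided permutation p of 0.4, where 0.1 is the smallest that 3 lines against 3 allow. Without GST line 2 the difference was -0.0093.

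**Figure D5:**
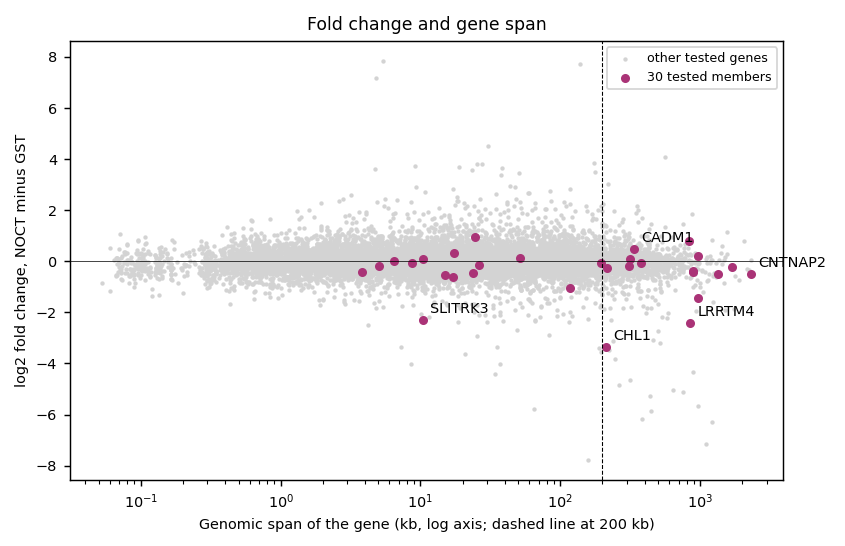
Log2 fold change (NOCT minus GST, edgeR) against the genomic span of each gene in kb on a log axis, for all tested genes (grey) and the 30 tested members (purple), with a dashed line at 200 kb. SLITRK3 is a short gene and CHL1 lies just above 200 kb, and both have log2 fold changes below -2.

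The partners of these proteins were followed in separate lists. Of 46 further trans-synaptic ligands and receptors, 34 were tested and 1 passed the edgeR adjusted threshold, against 0.0579% of all genes. The list was chosen with earlier results of these data known, so this count is not evidence about the partners as a set. The gene that passed was PTPRZ1, a receptor phosphatase that binds contactins. It had 0.528 ± 0.152 CPM in NOCT lines against 5.53 ± 0.591 CPM in GST lines (SD, n = 3). The 3 GST values lay between 5.02 and 6.18 CPM and the 3 NOCT values between 0.354 and 0.628 CPM, far apart. Its log2 fold change was -3.39 ± 0.30, with an edgeR adjusted p of 0.0113, and it did not pass without GST line 2, GST line 9 or NOCT line 11. By unadjusted p, 5 of the 34 were lower, where 6.52% of all genes were, with PTPRS (log2 fold change -0.31), a presynaptic receptor phosphatase, named by rank, and 2 were higher, where 7.38% were. The higher pair were NXPH4, a neurexophilin that binds neurexins, at 0.86, and CLSTN3, a calsyntenin, at 0.36, with edgeR adjusted p-values of 0.196 and 0.2095.

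None of the 34 synaptic scaffolds and linkers, all tested, passed the edgeR adjusted threshold, and 3 passed the unadjusted one, all lower, against 13.9% of all genes in either direction and 6.52% on the lower side. LIN7A, a PDZ adaptor that joins CASK beneath neurexins, had 17.4, 21.4 and 16.4 CPM in GST lines 2, 8 and 9 and 5.58, 3.68 and 6.93 CPM in NOCT lines 4, 11 and 12. The groups were well apart, with a log2 fold change of -1.77 ± 0.24, an edgeR adjusted p of 0.0563 and a DESeq2 adjusted p of 1.94e-09. EPB41L3 and EPB41, linkers of adhesion proteins to the spectrin skeleton, had log2 fold changes of -0.61 and -0.24. HOMER3, a scaffold of metabotropic receptors, had -0.38 and did not pass the unadjusted threshold. The median log2 fold change was -0.13 over the ligands and receptors, -0.05 over the scaffolds and 0.00 over all genes tested.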

How the data were processed

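Strand-specific, rRNA-depleted 50 bp RNA-seq was measured in 6 clonal lines, 3 per group. The authors deposited whole-read counts per gene for each line, a table of TPM values, and a DESeq2 comparison with a mean normalised signal, shrunken log2 fold changes, a test score and p-values. Per the submitters' processing notes, the tools included STAR 2.5.2b, HTSeq 0.6.1p1 and DESeq2 1.16.1, with GRCh38. The direction of the authors' comparison was taken from its construct rows.

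Rows that name no gene were left out. Reads without a feature were 26.5% to 30.6%, ambiguous reads 2.02% to 2.41% and reads not placed uniquely 13.3% to 14.6% of a library. Counting used strand: 133 of 672 genes inside exons of the opposite strand only had at least 10 reads, against 4 of 764 inside exons of the same strand.

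Genes kept by filterByExpr were tested with edgeR 4.0.16 (R 4.3.3), TMM scaling and a quasi-likelihood fit, and p-values were adjusted by Benjamini-Hochberg over all 17261 genes, after the scripts were tested on simulated data. The standard error of an edgeR log2 fold change was back-calculated as its absolute value divided by the square root of the F statistic of the test. Alternatives were DESeq2 1.42.0, limma 3.58.1, other scalings and filters, the neighbour offset and leaving out each line. Coordinates, exons and overlaps came from GENCODE release 29 on GRCh38 (58275 genes matched) and promoters from RefSeq.

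The members and lists were chosen with earlier results of these data known. Full values were given for members with an unadjusted p under 0.05 or called by another tool or the authors' table, and for the 3 with the highest TPM, and at most 4 genes of each partner list were named. Other members were named after their values were seen.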

Additional observations from a re-analysis of the deposited data

How the results depend on the processing

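No paired analysis was possible because the GST lines (2, 8 and 9) and the NOCT lines (4, 11 and 12) share no replicate number. The 10 genes called by edgeR became 508 with DESeq2, 37 with the neighbour offset, 888 without the filter on low counts, 22 with spike-in totals and 16 with limma voom, and 0 to 893 when 1 line was left out, with 893 without NOCT line 12 and 0 without GST line 9, where 1420 passed the unadjusted p. The count of members called was 0 of 30 in edgeR, with 8 by unadjusted p. It became 3 of 26 with DESeq2, against 3.41% of all genes. Without the filter it was 6 of 49 (SLITRK3, CHL1, NCAM2, LRFN5, NLGN2 and CADM1), against 2.57%. With 1 line left out it was 0 to 5, with 5 of 30 without NOCT line 12, against 5.17%. In edgeR 1 partner gene was called, with 34 ligands and receptors and 34 scaffolds tested. This became 3 with DESeq2, against 3.41% of all genes, and 2 with the neighbour offset. Without the filter it was 6, against 2.57%, and with 1 line left out it was 0 to 5. It was 0 without GST line 2, GST line 9 or NOCT line 11 and 5 without NOCT line 12, against 5.17%. A wide range among NOCT lines was found in 17 of 30 members, against 15.1% of all genes. Where the mean reached 5 CPM it was found in 6 of 16, against 6.54%. With 1 NOCT line left out the count was 5 to 15 of 30, against 3.65% to 11.4%, and a range over 2 lines cannot exceed one over 3. The long-gene difference lay between -0.0867 and -0.0093 with 1 line left out. Among the 9 tested members with full values, CADM4 changed direction in 1 alternative, from 0.32 to -0.042 with the neighbour offset, and the others kept theirs in the alternatives that gave a value. With 1 line left out the edgeR adjusted p lay between 0.0286 and 0.444 for CHL1, 0.0188 and 0.536 for SLITRK3, 0.0109 and 0.590 for CADM1 and 0.0263 and 0.597 for NLGN2. The spread and partner alternatives were chosen after seeing the data, fits without a line compare 3 lines with 2, and where no cause is shown by the construction the cause was not tested. Members with few reads limit precision: 3 counts correspond to 0.118 to 0.158 CPM in a library.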

Other observations

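Among the 21 members with too few reads for the edgeR test, NCAM2, LRFN5, SLITRK4, CADM3, LRRTM1, SLITRK6 and LRRTM3 had the most counts. LRFN5, a postsynaptic organiser, had 0, 41 and 28 counts in GST lines 2, 8 and 9 and 0, 1 and 0 counts in NOCT lines 4, 11 and 12. LRRTM1, a ligand of neurexins, had 1, 16 and 8 counts in the GST lines and 1, 3 and 5 in the NOCT lines. LRRTM3, of the same family, had 2, 9 and 5 counts against 0, 3 and 4. The groups overlapped in each of these genes.

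SLITRK4 and CADM3 had 46 and 45 counts over the 6 libraries. SLITRK4 was highest in GST line 9, with 24 counts, and CADM3 in NOCT line 11, with 19. Genes on the opposite strand overlap 36.6% of the CADM3 exon bases. SLITRK6, DSCAML1, LRFN2 and CADM2 had 26, 18, 13 and 11 counts. CNTN3, CNTN5, CNTN6, CNTNAP5, SLITRK1, SLITRK2, LRRC4C, IL1RAPL1 and OPCML had between 1 and 5 counts over all 6 libraries.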
